A study of Tachycineta bicolor with 12 samples.

Results

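The liver of the tree swallow (Tachycineta bicolor) was set against the other 5 tissues of the same birds. Liver was taken from the tissue labels and is 2 of the 12 libraries in all, a NextSeq library and a MiSeq library made from 1 RNA pool. Blood, ovary, brain, spleen and pectoral muscle have 1 pool and 2 libraries each. Every pool mixed equal amounts of RNA from the same 2 wild, untreated adult females, of which 1 was collected while establishing a territory and 1 while incubating. The libraries of a tissue are technical repeats of its pool, and with a single pool per tissue no p can be given for a difference between tissues. Levels are CPM, counts per 1000000 counts of a tissue after its NextSeq and MiSeq counts were summed. CPM compares a gene between tissues, but not the levels of different genes, because transcript lengths were not used. Where segments are ranked or called abundant or low below, this refers to their counts without regard to length.

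A segment, which is a protein-coding stretch of the study's own assembly named after its best protein match, was called liver-high at 10 CPM or more in liver and at least 4 times the highest of the other 5 tissues. The ratio was taken after 1 CPM was added to both levels. Of 14561 segments with 1 CPM or more in any tissue, 359 were liver-high (2.47%) and 25 were liver-low (0.172%), at least 4 times below the lowest of the other tissues while all of those were at 10 CPM or more. The liver-high segments carried 321 different protein names and held 51.998% of all liver counts. They held 1.14% of the counts in spleen, 0.992% in ovary, 0.811% in brain, 0.398% in muscle and 0.152% in blood. Liver was the highest tissue by any margin for 907 segments (6.23%) in CPM. Both sequencing platforms gave nearly the same share of liver, 52.01% by NextSeq and 51.7% by MiSeq.

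Hepatocytes, the main cells of the liver, secrete most proteins of the blood plasma, make bile acids from cholesterol, release or store glucose, and break down amino acids and foreign compounds. In birds the liver is also the main site of fatty acid synthesis, and waste nitrogen leaves the body as uric acid, which is built through the purine pathway rather than through the urea cycle of mammals. In laying females, estrogen makes the liver secrete the lipoproteins that fill the yolk.

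The label was met by its 3 defining markers. Serum albumin (ALB), the main plasma protein, was at 75986 CPM in liver, 828 CPM in spleen, 74.1 CPM in ovary, 2.14 CPM in muscle, 0.965 CPM in brain and 0.7998 CPM in blood. Apolipoprotein B-100 (APOB), the protein backbone of the lipid particles that liver exports, was at 22348 CPM in liver, 252 CPM in spleen, 29.6 CPM in ovary, 0.251 CPM in blood, 0.222 CPM in muscle and 0.0508 CPM in brain. Fatty acid synthase (FASN), which builds palmitate, was at 17484.5 CPM in liver, 1045 CPM in brain, 566 CPM in spleen, 436 CPM in ovary, 38.9 CPM in blood and 37.4 CPM in muscle. Liver stood far above every other tissue for each of the markers, and both liver libraries lay close together. They gave 76427 and 67655 CPM for albumin, 22505 and 19374.5 CPM for apolipoprotein B-100 and 17568 and 15918 CPM for fatty acid synthase, by NextSeq and MiSeq in that order. The level in liver was 91.7 times that of the next tissue for albumin (95% interval 90.2 to 93.3), 88.5 times for apolipoprotein B-100 (85.9 to 91.3) and 16.7 times for fatty acid synthase (16.5 to 16.96). Intervals of levels are exact Poisson and those of ratios conditional binomial intervals, and all cover counting error only, not the spread between birds.

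Ratios to the other tissues depended on the scale. Under trimmed mean scaling (TMM), which divides CPM by a factor that aligns the bulk of segments between tissues, liver moved up by 1.76 on the log2 scale relative to brain, 2.01 relative to ovary and 1.87 relative to spleen. The log2 ratio of albumin to its next tissue was 6.52 in CPM and 8.39 under TMM, a far wider gap than its counting interval spans. The median log2 ratio to the highest other tissue over all tested segments was -2.73 in CPM and -1.74 under TMM. Of the 14561 tested segments, liver was the highest tissue for 907 in CPM and for 1933 under TMM. The liver-high rule was met by 359 of them (2.47%) in CPM and by 592 under TMM. The counts of list members below are to be read against these, since calls rose in general under TMM. Levels and ratios below are in CPM unless TMM is named. A gene's log2 ratio under TMM is to the highest other tissue on that scale, which need not be its next tissue in CPM.

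**Figure D1:**
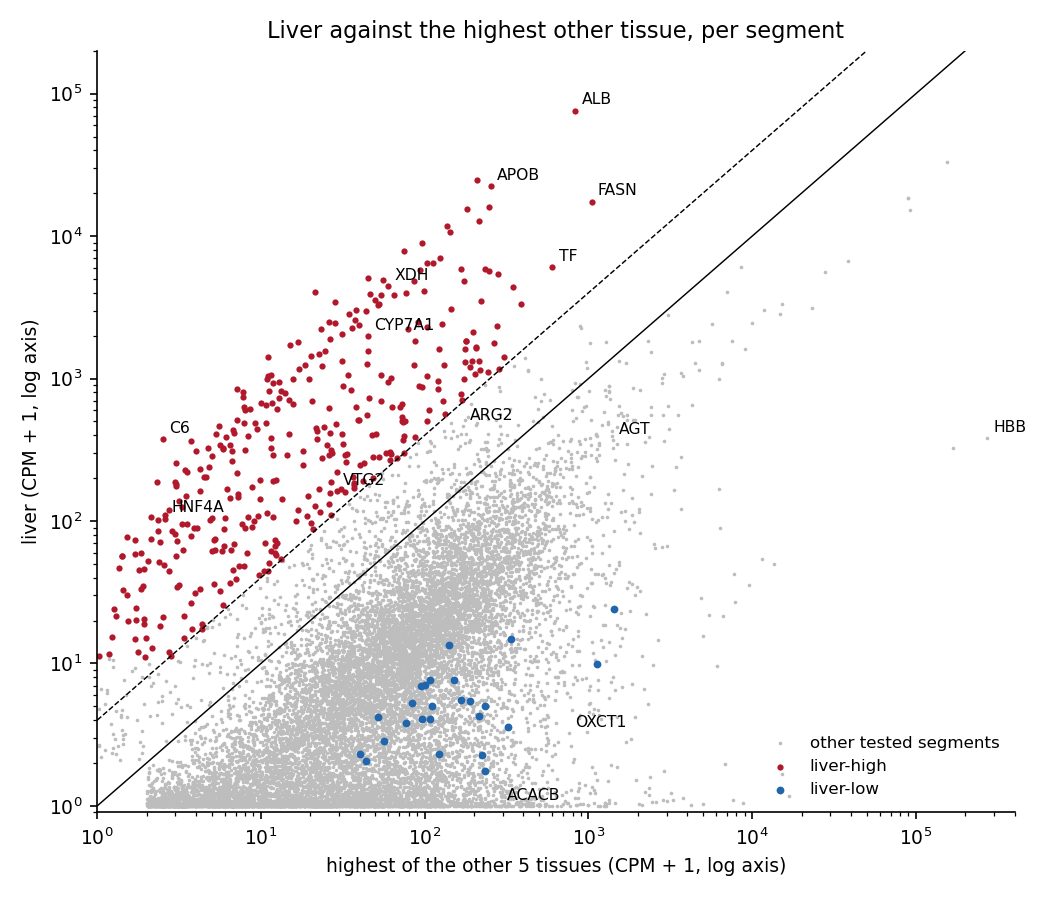
Level of each tested segment in liver (vertical, CPM plus 1) against its highest level in the other 5 tissues (horizontal, CPM plus 1), both on log axes. The solid line marks equal levels and the dashed line a ratio of 4. The 359 liver-high segments are red, the 25 liver-low segments are blue, and albumin stands highest, at 75986 CPM in liver.

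The most abundant liver-high segments were led by secreted proteins and by enzymes of amino acid, sugar and purine metabolism. The 5 highest held 15.7% of all liver counts and the 20 highest 27.9%. After albumin came a segment named ovoinhibitor-like, a protease inhibitor known from chicken plasma and egg white, at 24755 CPM in liver against 207 CPM in spleen, its next tissue. Retinol-binding protein 4 (RBP4), the carrier of vitamin A, was at 15967 CPM against 246 CPM in spleen, and transthyretin-like (TTR), a carrier of thyroid hormone, at 15517 CPM against 179 CPM in spleen. A separate segment named transthyretin was not liver-high, at 156 CPM in liver and 363 CPM in brain. Of the 20 segments, 14 had spleen as their next tissue, 3 had ovary, 2 had brain and 1 had muscle. Gallinacin-9, an avian beta-defensin, was the segment among them on which the platforms differed most, with 6519 CPM by NextSeq and 15379 CPM by MiSeq in liver. Its next tissue was spleen, at 123 CPM. Over all liver-high segments, 354 of 359 had liver levels within 2 times of each other on the platforms.

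**Figure D2:**
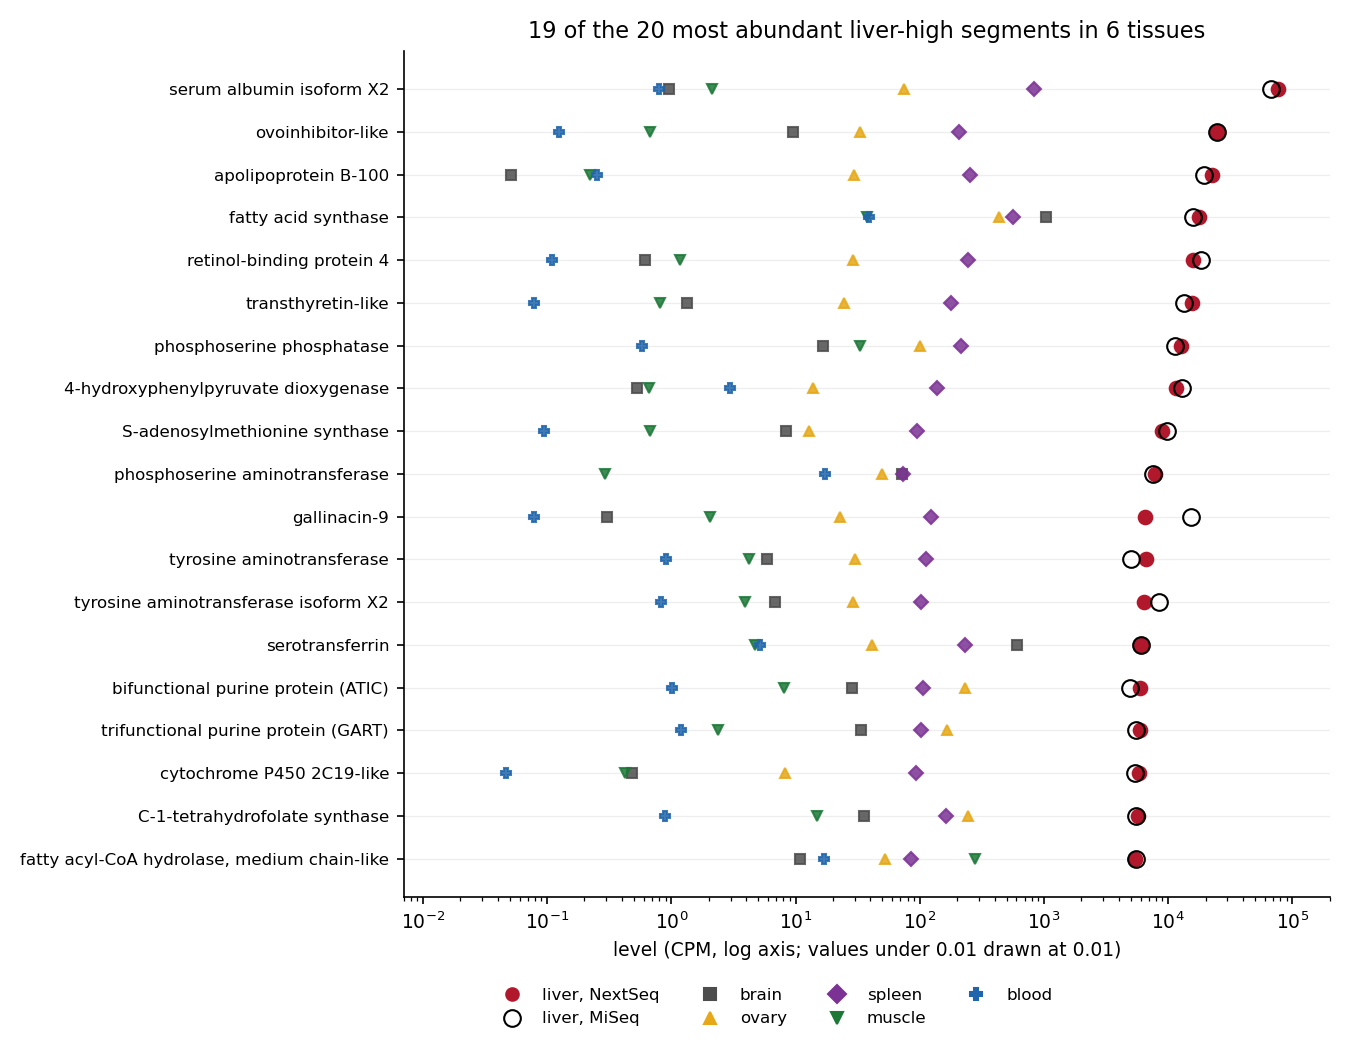
Levels of 19 of the 20 most abundant liver-high segments in each tissue, in CPM on a log axis. Filled red circles are the liver NextSeq library, open black circles the liver MiSeq library, and the other symbols the summed level of each other tissue. In every line both liver libraries stand to the right of all other tissues, with gallinacin-9 the line in which they lie farthest apart.

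Among the 10 widest ratios, an alpha-1-antitrypsin-like segment (SERPINA1), an inhibitor of neutrophil elastase in mammals, was at 4019 CPM in liver and 20.2 CPM in spleen, with a ratio of 198 (178 to 222). Complement component C6, part of the pore that lyses microbes, was at 374 CPM in liver and 1.52 CPM in spleen, with a ratio of 247 (167 to 382). Also in this group, ranked after 1 CPM was added to both levels, were the fibrinogen alpha chain, the complement component C8 alpha chain, secreted phosphoprotein 24, serine protease inhibitor 2.1-like, beta-microseminoprotein-like and phosphoserine aminotransferase, each above 100 times the next tissue. At the other end of the rule, otopetrin-2 was just inside it with a log2 ratio of 2.001, and hepatocyte nuclear factor 4-beta-like just outside with 1.99.

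Plasma carriers and protease inhibitors made up the list with the largest share of liver-high members apart from the markers. 17 of 19 were liver-high, with a median log2 ratio of 5.97 to the highest other tissue, where the median over all tested segments was -2.73. Serotransferrin (TF), the iron carrier of plasma, was at 6042 CPM in liver and 602 CPM in brain, with 232 CPM in spleen, 41.5 CPM in ovary, 5.21 CPM in blood and 4.696 CPM in muscle. Inter-alpha-trypsin inhibitor heavy chains, which bind hyaluronan, reached 2511 CPM for ITIH3, 1449 CPM for ITIH4 and 823 CPM for ITIH2, each with spleen next at 24.9, 19.3 and 12.2 CPM. Ceruloplasmin-like (CP), a copper-carrying oxidase, was at 735 CPM against 44.98 CPM, vitamin D-binding protein (GC) at 409.8 CPM against 4.304 CPM, and histidine-rich glycoprotein (HRG) at 386 CPM against 5.15 CPM, again with spleen next. Vitronectin (VTN), an adhesion protein, had brain as its next tissue at 176 CPM, against 1311 CPM in liver. The segments named alpha-2-macroglobulin (A2M), a broad protease trap, parted. The matched one was at 21.8 CPM in liver and 1568 CPM in brain, and another was at 262 CPM in liver and 215 CPM in brain, so neither was liver-high. Segments named alpha-2-macroglobulin-like protein 1 were liver-high, the highest at 800.3 CPM. Carboxypeptidase N (CPN1) was highest in liver at 14.97 CPM and 2.41 times above ovary, short of the rule, which it met under TMM (log2 ratio 2.88).

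Blood clotting factors formed a comparable block. 17 of 23 were liver-high, with a median log2 ratio of 4.798. The 3 chains of fibrinogen, the protein that forms the clot, were at 3431 CPM (alpha), 2839 CPM (beta) and 2468 CPM (gamma) in liver and at 27.2, 33.3 and 27.2 CPM in spleen, their next tissue. Prothrombin (F2) was at 1479 CPM against 21.6 CPM in spleen, and plasminogen-like (PLG), whose product dissolves clots, at 3933 CPM against 45.6 CPM in spleen. Kininogen-1 (KNG1), the source of bradykinin, was at 4813 CPM in liver and 172 CPM in ovary. The members made chiefly by other cells in mammals went the other way. Coagulation factor VIII (F8) was at 30.3 CPM in liver and 221 CPM in spleen, von Willebrand factor (VWF), an endothelial protein, at 7.89 CPM in liver and 183 CPM in ovary, and tissue factor pathway inhibitor (TFPI) at 5.16 CPM in liver and 150.1 CPM in spleen. Coagulation factor X (F10) lay at 214 CPM in liver and 233 CPM in spleen, with a ratio of 0.9201 (0.885 to 0.957). Under TMM F10 was highest in liver, with a log2 ratio of 1.41 to the highest other tissue on that scale.

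Complement was split by its parts. 10 of 19 members were liver-high, with a median log2 ratio of 2.900. The central component C3 was at 632 CPM in liver and 69.8 CPM in spleen, C4-like at 1240.0 CPM against 84.99 CPM in ovary, and C5 at 539.8 CPM against 71.4 CPM in spleen. Complement factor I (CFI), a protease that cuts activated C3, was at 709 CPM in liver. Of the components that build the lytic pore, C9 was at 1039.5 CPM, C8 alpha at 837 CPM, C6 at 374 CPM, C8 beta at 255 CPM and C8 gamma at 74.3 CPM. The exception in the pore was C7, at 0.551 CPM in liver (0.334 to 0.856), 56.96 CPM in ovary, 43.5 CPM in spleen, 15.6 CPM in muscle, 0.889 CPM in brain and 0.0314 CPM in blood. C7 was thus high in ovary and spleen, and low in liver, brain and blood. The recognition and starter components were higher in spleen in CPM, with C1S at 575 CPM against 149 CPM in liver and C1R at 449.9 CPM against 129.7 CPM. The 3 chains of C1q were at 321 to 543 CPM in spleen against 18.1 to 37.4 CPM in liver. TMM moved liver up by 1.87 on the log2 scale relative to spleen, which closes most of the C1S gap. Under TMM C1R was slightly higher in liver, with a log2 ratio of 0.08.

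Acute phase and iron genes were mixed, with 4 of 12 members called and a median log2 ratio of -1.03 (0.27 under TMM, a change of sign). Both medians were above those over all tested segments, -2.73 in CPM and -1.74 under TMM. Besides transferrin and ceruloplasmin, the called members were interleukin-1 receptor type 1-like (IL1R1) at 626 CPM against 61.7 CPM in ovary, and TMPRSS6, a protease that in mammals restrains hepcidin, at 216 CPM against 6.11 CPM in ovary. The ferritin heavy chain (FTH1), which stores iron, was at 2404 CPM in liver and 5661 CPM in blood, and the transferrin receptor (TFRC) at 120.3 CPM in liver and 3653 CPM in blood. LECT2, a plasma cytokine made by liver in mammals, was at 0.0565 CPM in liver, from 2 counts, against 5.03 CPM in spleen, a ratio of 0.0112 (0.00134 to 0.0419).

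Lipoprotein and yolk genes gave 7 liver-high members of 14, with a median log2 ratio of 2.57, and 11 under TMM, with a median of 3.93. Over all 14561 tested segments, 359 were liver-high in CPM and 592 under TMM. Microsomal triglyceride transfer protein (MTTP), which loads lipid onto apolipoprotein B, was at 441 CPM in liver and 8.49 CPM in ovary, and hepatic lipase (LIPC) at 1901 CPM against 25.3 CPM in spleen. Beta-2-glycoprotein 1 (APOH) was at 3073 CPM in liver and 144 CPM in brain. The yolk precursors were present at low levels. Vitellogenin-2-like (VTG2) was at 162 CPM in liver, 28.1 CPM in ovary, 4.67 CPM in brain, 0.727 CPM in spleen and 0 in muscle and blood, and vitellogenin-1-like (VTG1) at 37.7 CPM in liver, 30.01 CPM in ovary, 0.182 CPM in spleen and below that in the rest. A further vitellogenin-2-like segment was at 50.1 CPM in liver and 16.8 CPM in ovary. In CPM liver exceeded ovary 5.76 times for VTG2 (5.33 to 6.23), 2.98 times for the further segment (2.68 to 3.32) and 1.25 times for VTG1 (1.15 to 1.37). Under TMM all of them met the liver-high rule, with log2 ratios of 4.43, 3.42 and 2.25 in that order. Apovitellenin-1-like (APOV1), a small protein of laying-type yolk lipoproteins, was at 20.7 CPM in liver and 0.303 CPM in spleen, and riboflavin-binding protein, which carries the vitamin into eggs, at 1.19 CPM in liver and 7.58 CPM in ovary. The estrogen receptor (ESR1), through which yolk genes are switched on, was at 32.8 CPM in liver and 8.93 CPM in ovary. This log2 ratio of 1.77 is under the rule in CPM. Under TMM ESR1 was past the rule, with a log2 ratio of 2.05 to the highest other tissue on that scale. Because the pool mixes a bird establishing its territory with an incubating bird, the yolk gene levels of each cannot be told apart.

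Bile acid genes were liver-high in 12 of 16 cases, with a median log2 ratio of 3.32. CYP7A1, the rate-limiting enzyme of the pathway, was at 1983 CPM in liver, 44.2 CPM in ovary, 30.6 CPM in spleen, 1.33 CPM in muscle, 0.0762 CPM in brain and 0.0314 CPM in blood. No other tissue came near liver, the ratio to ovary being 44.9 (42.3 to 47.6). CYP8B1, which sets the amount of cholic acid in mammals, was at 203 CPM against 3.52 CPM in spleen. The bile salt export pump (ABCB11) was at 612 CPM against 7.52 CPM in spleen, and the cholesterol exporters ABCG5 and ABCG8, which work as a pair, were at 94.6 and 80.6 CPM against 2.304 and 2.0005 CPM. The bile acid receptor (NR1H4) was at 106 CPM in liver and 1.12 CPM in spleen, while a separate bile acid receptor-like segment was higher in spleen in CPM, at 41.7 against 15.5 in liver, and higher in liver under TMM, with a log2 ratio of 0.43. CYP27A1, which also serves other tissues, was higher in ovary in CPM, 341 against 213 in liver, but not under TMM (log2 ratio 1.32), while AKR1D1, a steroid reductase, was at 377 and 283 CPM in liver and ovary and met the rule under TMM (log2 ratio 2.41).

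The genes of nitrogen disposal were followed along both of its pathways. Of the genes from purine synthesis to urate, 6 of 12 were liver-high (median log2 ratio 3.24) and together they held 3.202% of liver counts, against 0.118% in brain, 0.0763% in ovary and 0.0722% in spleen. Of the urea cycle genes 0 of 6 were liver-high (median log2 ratio -2.29), a count and a median close to those over all tested segments, and 1 was liver-high under TMM. They held 0.0468% of liver counts, nearly all of it from the arginase ARG2, against 0.0233% in ovary, 0.01003% in brain, 0.00986% in muscle, 0.00663% in spleen and 5.52e-04% in blood.

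In order of the purine pathway, ribose-phosphate pyrophosphokinase 2 (PRPS2), which supplies the activated ribose, was at 4894 CPM in liver and 54.5 CPM in spleen. Its sister enzyme PRPS1 was lower in liver than in any other tissue, at 6.64 CPM against 15.3 CPM in muscle, 20.2 CPM in blood, 63.4 CPM in spleen, 61.7 CPM in brain and 75.6 CPM in ovary. Amidophosphoribosyltransferase (PPAT), the committed step, was at 4826 CPM in liver, 84.99 CPM in spleen, 41.3 CPM in ovary, 5.43 CPM in muscle, 4.496 CPM in brain and 0.768 CPM in blood. Liver was therefore 56.8 times above spleen (53.9 to 59.9). The multifunctional enzymes GART and ATIC were at 5887 and 5906 CPM in liver and had ovary next, at 167 and 232 CPM, and adenylosuccinate lyase (ADSL) was at 2477 CPM with muscle next at 90.3 CPM. Glutamine synthetase (GLUL), which provides the nitrogen, was at 2253 CPM in liver and 894 CPM in brain. This ratio of 2.52 is under the rule in CPM. Under TMM GLUL was past the rule, with a log2 ratio of 2.82 to the highest other tissue on that scale. At the end of the route, xanthine dehydrogenase/oxidase (XDH), which forms uric acid, was at 4438 CPM in liver, 58.6 CPM in spleen, 49.996 CPM in ovary, 3.68 CPM in brain, 0.234 CPM in muscle and 0.0941 CPM in blood. Every tissue but liver was at least 75.7 times lower. Cytosolic purine 5'-nucleotidase (NT5C2) had a segment at 1232 CPM in liver and 352 CPM in blood, under the rule, and another that was liver-high, at 1156 CPM in liver with ovary next at 216 CPM. Adenosine deaminase (ADA) was low, at 0.693 CPM in liver (0.446 to 1.03) and 66.5 CPM in spleen, and AMP deaminase 3, which removes the amino group from AMP, met the rule for liver-low.

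In the urea cycle, carbamoyl-phosphate synthase (CPS1) was at 4.199 CPM in liver and 28.997 CPM in ovary, and argininosuccinate lyase (ASL) at 1.795 CPM in liver and 10.6 CPM in brain. Ornithine carbamoyltransferase (OTC) had 0 counts in liver and was at 2.31 CPM in brain, at least 27.3 times above the liver level that 3 counts would give. Argininosuccinate synthase (ASS1) had 1.5 counts in liver, 0.0424 CPM, and was at 21.6 CPM in brain, a ratio of 0.00196 (1.41e-04 to 0.00843). The exception was the mitochondrial arginase ARG2, which splits arginine, at 461 CPM in liver, 171 CPM in ovary, 46.9 CPM in muscle, 33.6 CPM in brain, and lower in spleen (19.5 CPM) and blood (3.56 CPM). It was 2.69 times higher in liver than in ovary (2.61 to 2.79), which is under the rule in CPM. Under TMM ARG2 was past the rule, with a log2 ratio of 2.64 to the highest other tissue on that scale.

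**Figure D3:**
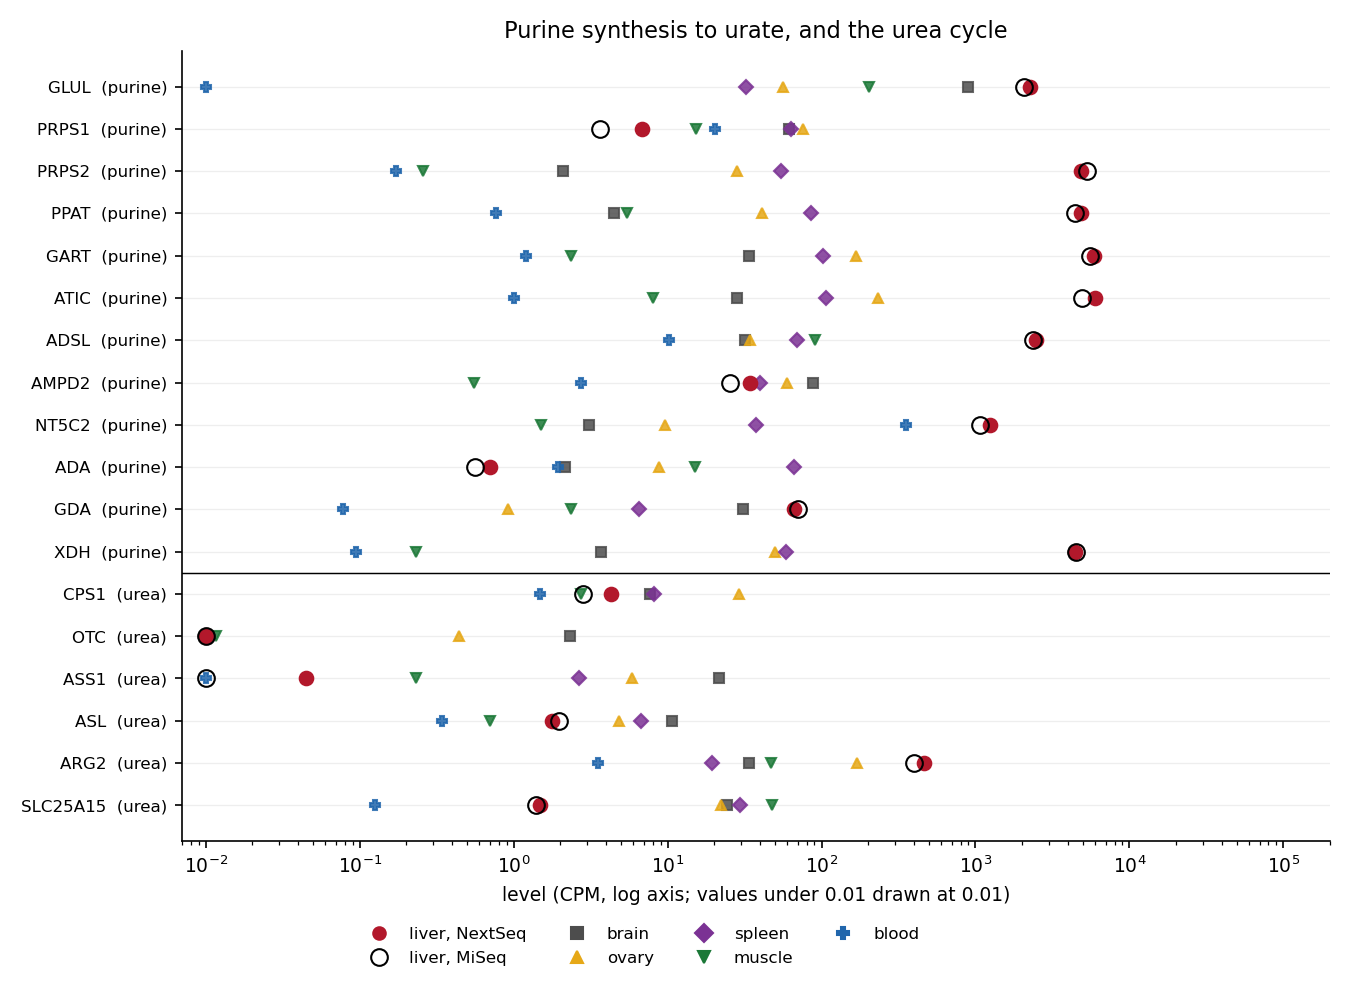
Levels of the matched genes from purine synthesis to urate (above the line) and of the urea cycle (below it) in CPM on a log axis, with filled red and open black circles for the liver NextSeq and MiSeq libraries and other symbols for the summed level of each other tissue. Liver is to the right for PRPS2, PPAT, GART, ATIC, ADSL and XDH, and at or near the left edge for OTC and ASS1, with values under 0.01 CPM drawn at 0.01.

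Amino acid breakdown was the longest uniform list. 31 of 36 enzymes were liver-high and 35 were highest in liver, with a median log2 ratio of 4.65, and the list held 6.56% of liver counts. The steps of tyrosine breakdown were all present. Tyrosine aminotransferase (TAT) was at 6514 CPM, 4-hydroxyphenylpyruvate dioxygenase (HPD) at 11731 CPM, homogentisate dioxygenase (HGD) at 2379 CPM, maleylacetoacetate isomerase (GSTZ1) at 1063 CPM and fumarylacetoacetase (FAH) at 942 CPM in liver. Their next tissue was spleen in each case, at 112, 137, 38.9, 32.8 and 11.97 CPM in the same order. A further segment named tyrosine aminotransferase isoform X2 had nearly the same level in liver, 6464 CPM, and how reads were split between the segments is not given in the sources used here.

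Tryptophan breakdown was led by tryptophan 2,3-dioxygenase (TDO2) at 3362 CPM in liver and 51.5 CPM in spleen, followed down the kynurenine route by KYNU at 991 CPM, HAAO at 821 CPM and KMO at 612 CPM, all liver-high. Histidine breakdown had histidine ammonia-lyase (HAL) at 2572 CPM, urocanate hydratase (UROC1) at 1254 CPM, FTCD at 652 CPM and AMDHD1 at 343 CPM. Glycine dehydrogenase (GLDC), the decarboxylating part of the glycine cleavage system, was at 3999 CPM in liver and 75.6 CPM in spleen. Sulfur amino acids had S-adenosylmethionine synthase (MAT1A) at 8929 CPM, betaine-homocysteine methyltransferase (BHMT) at 3878 CPM, cysteine dioxygenase (CDO1) at 2996 CPM, CBS at 632 CPM and CTH at 512 CPM, each liver-high. A further CTH segment was not liver-high, at 16.3 CPM in liver and 147.5 CPM in ovary. Nor was a further S-adenosylmethionine synthase segment, at 38.1 CPM in liver and 189 CPM in brain. The 5 members that missed the rule included GOT1, at 1798 CPM in liver and 1284 CPM in muscle with the order turned under TMM (log2 ratio -0.16), and BCKDHB, of the branched-chain keto acid dehydrogenase, at 269 CPM in liver and 349 CPM in muscle.

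Serine synthesis was examined after its values had been seen, since phosphoserine phosphatase and phosphoserine aminotransferase were among the 20 most abundant segments. Phosphoserine phosphatase was at 12673 CPM in liver, 214 CPM in spleen, 101 CPM in ovary, 32.8 CPM in muscle, 16.7 CPM in brain and 0.5802 CPM in blood. Phosphoserine aminotransferase was at 7820.3 CPM in liver, with spleen and brain next at 73.5 and 72.5 CPM, and the entry enzyme D-3-phosphoglycerate dehydrogenase was at 691 CPM in liver and 19.5 CPM in brain. All steps of the route were thus liver-high.

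The folate and choline enzymes that carry methyl groups were liver-high in 7 of 12 cases (median log2 ratio 2.75). C-1-tetrahydrofolate synthase (MTHFD1), which makes the formyl donor of purine synthesis, was at 5666 CPM in liver and 247 CPM in ovary, and the cytosolic serine hydroxymethyltransferase SHMT1 at 2217 CPM against 22.1 CPM in spleen. Its mitochondrial counterpart SHMT2 was nearly level between liver and ovary in CPM, at 28.2 and 25.5, but met the liver-high rule under TMM, with a log2 ratio of 2.06. Adenosylhomocysteinase (AHCY) was at 3332.5 CPM in liver and 389 CPM in ovary, and dimethylglycine dehydrogenase (DMGDH) at 1065 CPM against 10.6 CPM in spleen.

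Fatty acid and triglyceride synthesis was divided. 6 of 19 members were liver-high, with a median log2 ratio of 1.27, and 10 under TMM, with a median of 2.04. The route from citrate to palmitate was liver-high throughout, with ATP-citrate synthase (ACLY) at 4421 CPM against 347 CPM in ovary, acetyl-CoA carboxylase 1 (ACACA) at 1819 CPM against 178 CPM in brain, fatty acid synthase at the level given above, and malic enzyme (ME1), a source of NADPH, at 1414 CPM against 304 CPM in ovary. Acetyl-CoA carboxylase 2 (ACACB), whose product in mammals blocks fatty acid entry into mitochondria, had 0 counts in liver, 291 CPM in muscle and 179 CPM in ovary, so muscle was at least 3429.5 times above the liver level that 3 counts would give. Of the elongases, ELOVL6, which extends palmitate, was liver-high at 167 CPM, while ELOVL2, which extends long polyunsaturated chains, was at 12.6 CPM in liver and 107 CPM in brain. The desaturases FADS1 and FADS2 were also higher in brain in CPM, at 180.2 and 432 CPM against 134 and 276 CPM in liver, an order that TMM turned, with log2 ratios of 1.32 and 1.104. Segments named after DGAT2, an enzyme of the last step of triglyceride synthesis, differed in their tissues. DGAT2 was at 1.301 CPM in liver, 295 CPM in ovary and 258 CPM in muscle, whereas a segment named diacylglycerol O-acyltransferase 2-like was liver-high, at 55.5 CPM against 0.424 CPM in spleen.

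Genes of ketone body formation and fatty acid oxidation were mostly not liver-high, with 3 of 16 called and a median log2 ratio of -0.47. Both values were still above those over all tested segments, with 18.75% called against 2.47%, and a median of -2.73 over all. Among the called members was the acyl-CoA ligase ACSL5, at 3563 CPM against 48.7 CPM in spleen. OXCT1, which lets tissues burn ketone bodies, was at 2.23 CPM in liver and 760.4 CPM in muscle, 340.4 times higher. Enzymes that carry and oxidise fatty acids in mitochondria were higher in muscle, among them HADHA at 1357 CPM against 719.8 CPM in liver, ACADL at 1341 against 799.9 CPM and CPT2 at 464 against 245 CPM. ACADM was close, at 1335 CPM in liver and 1541 CPM in muscle.

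Among peroxisome genes 7 of 17 were liver-high (median log2 ratio 1.68). The oxidases of small acids stood out in ratio, with HAO2 at 219 CPM and HAO1 at 108 CPM in liver against 2.52 and 1.58 CPM in spleen, and catalase (CAT), which breaks down the peroxide they make, was at 1174 CPM in liver and 285 CPM in muscle, short of the rule under TMM (log2 ratio 1.39). The factors that divide or import into the organelle were not called, with PEX14 at 44.3 CPM in liver and 83.7 CPM in brain, an order that TMM turned (log2 ratio 0.82), and PEX11A at 0.778 CPM in liver and 14.5 CPM in ovary.

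Cholesterol synthesis depended on the scale. 2 of 21 members were liver-high, the synthase HMGCS1 at 564 CPM against 132 CPM in brain and the sterol sensor INSIG1 at 258 CPM against 31.96 CPM in ovary. 8 members were highest in liver in CPM and 19 under TMM, where 8 were liver-high, and the median log2 ratio turned from -0.24 to 1.52. Over all tested segments the median was -2.73 in CPM and -1.74 under TMM, below that of the list on both scales. FDFT1, which makes squalene, was higher in ovary in CPM, 230.5 against 101, and higher in liver under TMM, by a log2 ratio of 0.82.

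Glucose and fructose genes were liver-high in 9 of 15 cases (median log2 ratio 3.18). Genes of glucose output that were called included PCK1 at 4131 CPM, FBP1 at 3304 CPM, the glucose-6-phosphate exchanger SLC37A4 at 657 CPM and glucose-6-phosphatase (G6PC1) at 153 CPM. Their next tissue was at 97.9, 50.5, 71.5 and 6.24 CPM in that order. The glucose carrier SLC2A2 was at 72.4 CPM against 0.697 CPM in spleen. The liver form of glycogen synthase (GYS2) was liver-high at 167 CPM, while the liver form of glycogen phosphorylase (PYGL) was nearly as high in ovary, at 280.0 CPM, as in liver, at 338 CPM, a closeness that held in CPM but not under TMM, where the log2 ratio was 2.27. The muscle isozyme FBP2 was at 2.83 CPM in liver and 47.4 CPM in muscle.

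Enzymes that alter drugs and pigments gave 20 liver-high members of 27 (median log2 ratio 4.11). The cytochromes P450 were led by the 2C19-like segment at 5791 CPM in liver and 92.9 CPM in spleen, and 3A9-like was at 996 CPM, 2H1-like at 675 CPM, 1A4-like at 405 CPM and 1A5-like at 340.0 CPM. Of the conjugating enzymes, glutathione S-transferase A4-like (GSTA) was at 1624 CPM in liver and 174 CPM in ovary, and the glucuronidating UGT1A1 at 175 CPM against 2.03 CPM in spleen. The carotenoid cleaving enzymes parted. BCO1, which makes retinal from beta-carotene, was at 557 CPM in liver, 43.6 CPM in spleen, 7.64 CPM in ovary, 7.16 CPM in brain, 1.28 CPM in muscle and 0.329 CPM in blood. BCO2, which cleaves at another bond, was at 0.481 CPM in liver (0.28001 to 0.7696), 54.3 CPM in ovary, 16.9 CPM in brain, 5.35 CPM in muscle, 0.879 CPM in spleen and 0.565 CPM in blood. Liver was thus the highest tissue for the former, and with blood and spleen among the low tissues for the latter, and aldehyde oxidase 1 (AOX1) was also low in liver, at 2.69 CPM against 123 CPM in muscle.

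Liver transcription factors were low in level, the highest of 18 at 118 CPM, and 4 were liver-high (median log2 ratio 1.04), and 8 under TMM (median 1.94). HNF4A, which drives many hepatocyte genes, was at 103 CPM in liver, 1.6004 CPM in brain, 0.576 CPM in spleen, 0.248 CPM in ovary, 0.0157 CPM in blood and 0 in muscle. The ratio to brain was 64.3 (45.3 to 94.4). The bile acid receptor given above, NR5A2 at 48.01 CPM and FOXA1 at 11.04 CPM were the other called members. ONECUT1 was at 28.2 CPM in liver and 18.4 CPM in ovary, short of the rule in CPM and past it under TMM (log2 ratio 2.49). In CPM spleen was higher for the oxysterol receptor NR1H3, at 237 against 35.9, and ovary for GATA4, at 49.5 against 7.41. Under TMM no member of the list was 4 times or more lower in liver than in spleen or in ovary.

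Hormones made by liver and their receptors were mixed, with 8 of 21 liver-high and a median log2 ratio of 0.28. Hepatocyte growth factor activator (HGFAC) was at 339 CPM against 4.61 CPM in spleen. Receptors that were liver-high included the growth hormone receptor (GHR) at 248 CPM, just short of the rule under TMM (log2 ratio 1.996), beta-klotho (KLB), a co-receptor for bile acid signals, at 143 CPM, the glucagon receptor (GCGR) at 93.5 CPM and FGFR4 at 69.3 CPM. Insulin-like growth factor I (IGF1) was low, at 10.3 CPM in liver and 5.91 CPM in spleen, with a ratio of 1.74 (1.39 to 2.203) and a log2 ratio of 2.32 under TMM. Its platforms gave 9.8996 CPM by NextSeq and 17.97 CPM by MiSeq. Angiotensinogen (AGT), the precursor of angiotensin, was higher in brain, at 1406 CPM, than in liver, at 369 CPM, and the binding protein IGFBP2 was at 1.53 CPM in liver and 30.7 CPM in brain. The deiodinase DIO1, which activates thyroid hormone, had a segment nearly level between liver and brain in CPM, at 48.9 and 40.1 (log2 ratio 1.99 under TMM), and another that was liver-high, at 104 CPM against 5.03 CPM in spleen.

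The secretory pathway, which folds and ships exported proteins, had 1 liver-high member of 29 (3.45%), near the 2.47% over all tested segments. The called member was MCFD2, the partner of LMAN1 in exporting clotting factors, at 389 CPM in liver and 86.2 CPM in ovary. LMAN1 was at 251 CPM in liver and 198 CPM in spleen, past the rule under TMM (log2 ratio 2.21), and SAR1B, needed in mammals for exporting large lipoproteins, at 282 CPM in liver and 79.9 CPM in muscle. The chaperones HSP90B1 and HSPA5 were higher in spleen in CPM, at 7059 and 2409 against 4020.2 and 1534 in liver, and higher in liver under TMM, with log2 ratios of 1.06 and 1.22. The sign of the list's median log2 ratio turned with the scale, from -1.05 in CPM to 0.65 under TMM. Over all tested segments the median was -2.73 and -1.74, so the list lay above it on both scales. In CPM 5 members were highest in liver against 23 under TMM, where 4 were liver-high.

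**Figure D4:**
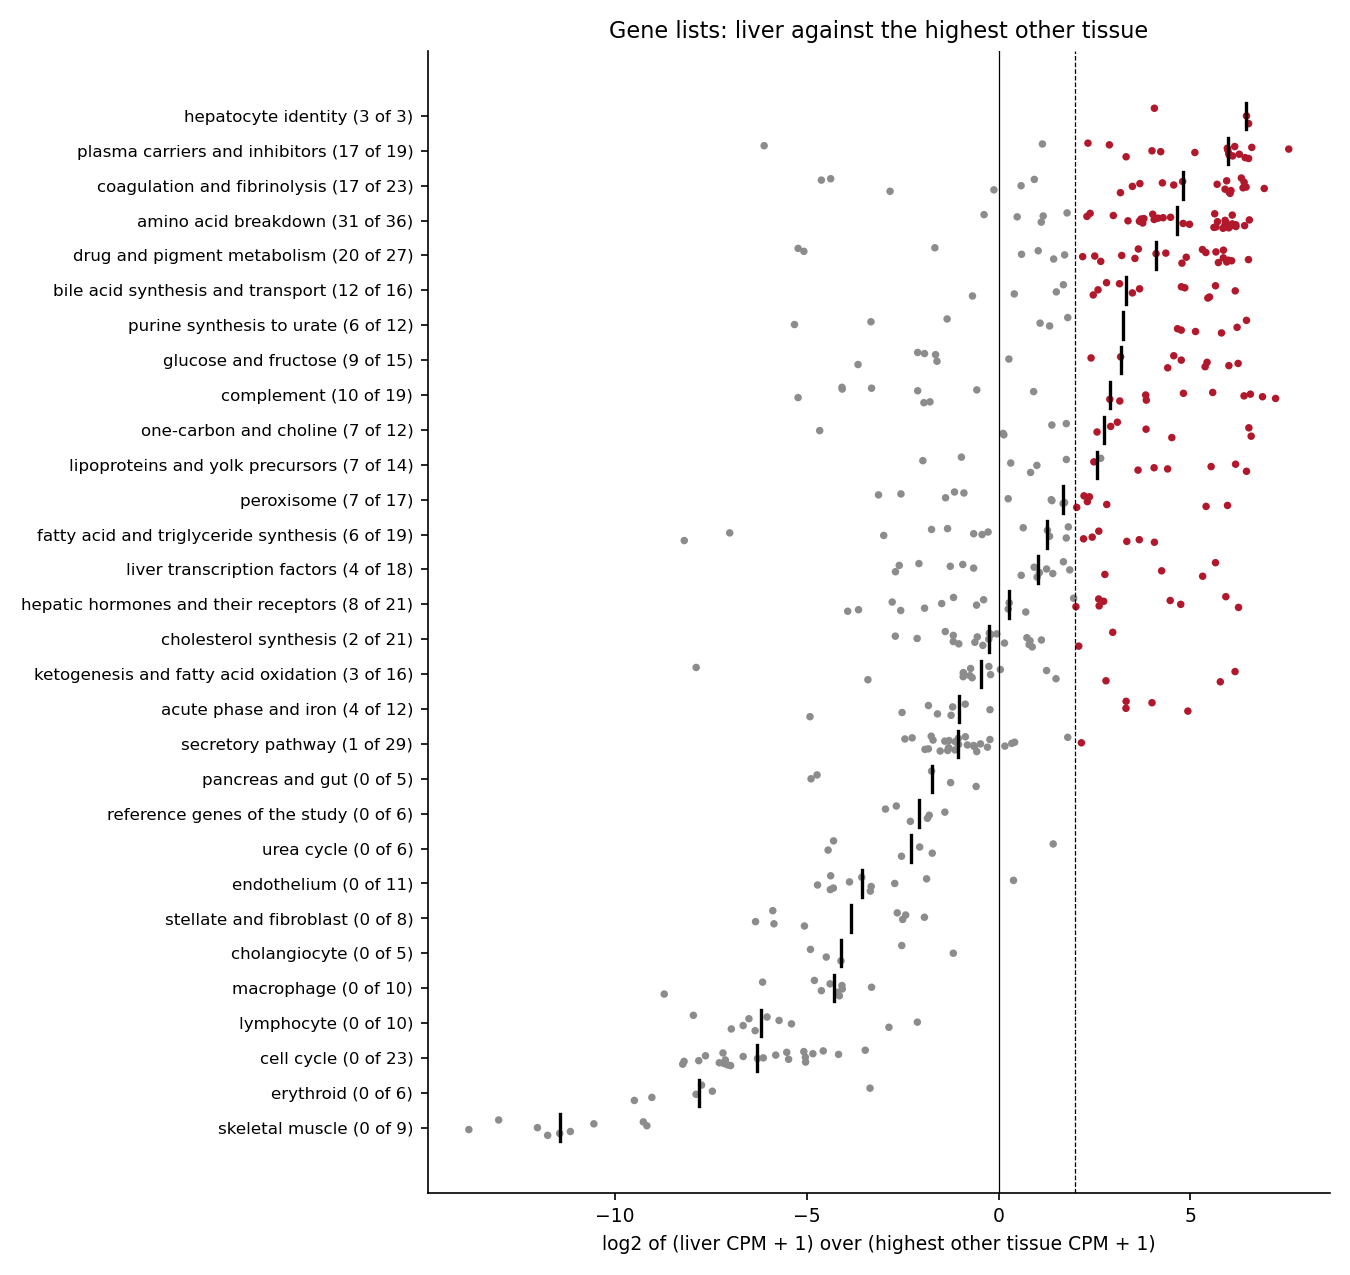
Each point is a member of a gene list, placed by the log2 ratio of liver to the highest other tissue (1 CPM added to both), and the black bar is the median of the list. Red points met the liver-high rule, which also asks for 10 CPM in liver, and the brackets give liver-high members of members tested. Lists of secreted proteins and amino acid enzymes lie to the right, and lists of dividing cells and of other cell types to the left.

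The liver pool held fewer messages of dividing cells than ovary and spleen. 0 of 23 cell cycle genes were liver-high. With 2.47% of all tested segments liver-high, this count says little by itself. None was highest in liver in CPM or under TMM, and the median log2 ratio was -6.28, against -2.73 over all tested segments. The list median was -6.07 to ovary and -4.36 to spleen, against -1.64 and -1.46 over all tested segments. To brain, muscle and blood it was -0.75, 0.29 and -0.29, against -1.41, 0.18 and 0.05 over all tested segments. MKI67, a marker of cycling cells, was at 1.81 CPM in liver, 354 CPM in spleen, 93.9 CPM in ovary, 8.61 CPM in brain, 0.925 CPM in blood and 0.3504 CPM in muscle. Spleen and ovary were high, and liver lay with brain, blood and muscle at under 10 CPM. The highest member, PCNA, a clamp of DNA replication, was at 9.97 CPM.

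Markers of the other cells of a liver were detected at low levels, and none of their lists had a liver-high member. With 2.47% of all tested segments liver-high, a count of 0 in lists this short says little about these cells. In a bulk sample, fewer cells of a type and less RNA per cell cannot be told apart. The sums over the matched markers in liver were 161 CPM for 11 endothelial genes, 290.4 CPM for 10 macrophage genes, 97.6 CPM for 8 stellate cell and fibroblast genes, 55.3 CPM for 10 lymphocyte genes and 4.69 CPM for 5 bile duct genes. The same lists summed to 1982, 10482, 1226, 8505 and 109 CPM in spleen, and their part in the liver values above was not tested. The macrophage list summed to 697 CPM in ovary but to less than in liver in brain (122 CPM), blood (102 CPM) and muscle (19.8 CPM). The endothelial sum was lower in liver than in every other tissue in CPM. These orders depended on the scale. Under TMM the median log2 ratio of liver over the endothelial members was 1.98 to brain, 1.69 to ovary and 1.43 to blood. It was -1.77 to spleen and -1.26 to muscle. For the macrophage members it was 1.95 to ovary and -2.45 to spleen under TMM. A macrophage mannose receptor 1 segment outside these sums was at 133 CPM in liver and 228 CPM in spleen. Its log2 ratio of -0.77 was smaller in size than the 1.87 by which TMM moved liver up relative to spleen. This order therefore turned under TMM. Of the 11 endothelial genes, 1 was highest in liver in CPM and 1 under TMM, and of the 10 macrophage genes none was on either scale. Stabilin-2 (STAB2), a scavenger receptor of sinus endothelium, was at 22.1 CPM in liver and 482 CPM in spleen. The macrophage receptors TIMD4 and CSF1R were at 33.6 and 27.7 CPM in liver against 638 and 507 CPM in spleen. MARCO, a macrophage scavenger receptor, had 1.5 counts in liver, 0.0424 CPM, against 436 CPM in spleen. Of the lymphocyte genes, PAX5, which defines B cells, had 0 counts in liver, and CD8A was at 5.64 CPM. Bile duct markers were at or below 2.403 CPM, and none of the 7 matched pancreas and gut genes was above 1.65 CPM in liver.

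Red cell messages were present in liver at a small part of their blood level. Hemoglobin subunit beta (HBB) was at 379 CPM in liver and 273157 CPM in blood, while the other tissues ranged from 223 CPM in muscle to 1249 CPM in ovary, and 0 of 6 erythroid genes were liver-high. Skeletal muscle genes were at or below 1.97 CPM in liver, where 0 of 9 were called. With 2.47% of all tested segments liver-high, a count of 0 among 6 or 9 genes says little about these cells. The 6 reference genes that the study used were never highest in liver, where GAPDH had the highest level of them, 1284 CPM.

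Messages of the liver-high segments were also found in the other tissues, at levels that differed by tissue. Over the 359 liver-high segments, the median level was 2.06% of the liver level in spleen, 1.73% in ovary, 1.09% in brain, 0.0796% in muscle and 0.0509% in blood. Spleen was the next tissue for 181 of them, ovary for 79, brain for 59, muscle for 21 and blood for 19. Of the 359 segments, 210 had a spleen level of 0.5 to 3% of liver, 92 had one above 5% and 47 above 10%, where the rule itself caps it. Within the lower range lay values of 1.09% for albumin, 1.13% for apolipoprotein B-100, 1.54% for RBP4, 1.17% for the fibrinogen beta chain and 1.54% for CYP7A1. Over the 100 most abundant, the quartiles ran from 1.17% to 2.92% in spleen, from 0.217% to 3.66% in ovary and from 0.01199% to 2.82% in brain. The spleen share had a median of 1.602% by NextSeq and 1.63% by MiSeq. Where these messages in the spleen pool came from was not tested. Because a liver-high segment had to be 4 times above every tissue, the spleen level set the ratio for 181 of the 359. Without spleen among the other tissues 407 segments were liver-high.

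**Figure D5:**
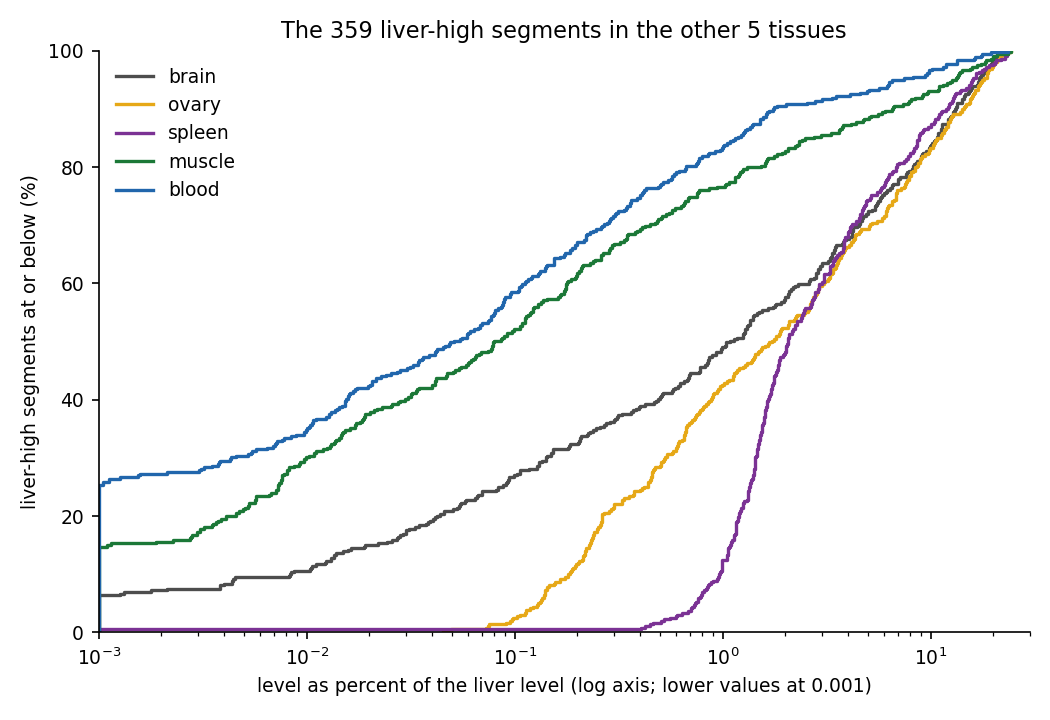
Share of the 359 liver-high segments (vertical, percent) whose level in each other tissue was at or below a given percent of the liver level (horizontal, log axis, values under 0.001 drawn at 0.001). The spleen curve is the steepest, with 210 segments between 0.5 and 3%, and the muscle and blood curves lie lowest in level, with medians of 0.0796% and 0.0509%.

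Of the 10 most liver-low segments, calcium ATPase 3, a pump that fills the endoplasmic reticulum, was at 1.29 CPM in liver, 222 CPM in brain, 99.8 CPM in spleen, 49.6 CPM in muscle, 31.9 CPM in ovary and 30.7 CPM in blood. Liver was 23.9 times below the lowest of them. FAM65B was at 0.749 CPM in liver and at least 15.2 CPM elsewhere, PDZ and LIM domain protein 7 at 1.33 against 20.2 CPM or more, and MAPRE2, a microtubule end-binding protein, at 3.31 against 29.5 CPM or more. AMP deaminase 3, which turns AMP into IMP, had 2 segments, both liver-low, at 1.31 and 1.06 CPM against 14.2 and 12.1 CPM or more in the other tissues. Multidrug resistance-associated protein 1, an exporter, was at 8.93 CPM in liver and 1133 CPM in blood, with 49.4 CPM in brain as the lowest other level. EH domain-containing protein 4 and a homolog of transport and Golgi organization protein 2 were at 2.56 and 4.03 CPM in liver, with lowest other levels of 17.3 and 26.6 CPM. Gelsolin, which severs actin, and plectin, which links filaments, were at 4.001 and 23.3 CPM in liver, with lowest other levels of 19.6 and 102 CPM, and were picked after their values had been seen. The liver-low group was sensitive to scale, since 5 of its 25 segments met the rule under TMM as well.

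The bifunctional enzyme that sets fructose-2,6-bisphosphate, a signal that turns glucose breakdown up, occurred on both sides. Its PFKFB2 segment named isoform X5 was liver-low, at 4.26 CPM in liver, 31.6 CPM in muscle, 32.9 CPM in spleen, 39.4 CPM in blood, 59.999 CPM in ovary and 82.2 CPM in brain. A segment of another gene model with the same protein name, isoform X1, was at 139 CPM in liver, 50.1 CPM in spleen, 26.8 CPM in blood, 3.71 CPM in brain, 2.92 CPM in ovary and 1.998 CPM in muscle. Liver was lowest for the former and highest for the latter.

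Against each tissue in turn, liver had more segments at least 4 times lower than higher where the other tissue was brain, ovary or spleen, and the reverse against muscle and blood. Against brain 752 segments were higher in liver and 5355 lower (41.9% called), with a median log2 ratio of -1.41. Against ovary 634 were higher and 6033 lower (45.8%), with a median of -1.64, and against spleen 692 were higher and 5263 lower (40.9%), with a median of -1.46. Against muscle 1741 were higher and 713 lower (16.9%), with a median of 0.18, and against blood 2628 were higher and 1765 lower (30.2%), with a median of 0.05. TMM moved liver relative to brain by 1.76 on the log2 scale, to ovary by 2.01, to spleen by 1.87, to muscle by -0.65 and to blood by -0.04. Under TMM the counts higher and lower in liver were 1790.0 and 2504 against brain, 1593 and 2125 against ovary, 1553 and 1499 against spleen, 1492 and 1299 against muscle and 2951 and 2032 against blood. Higher calls then made up 41.7% of the calls against brain (12.3% in CPM), 42.8% against ovary (9.51%), 50.9% against spleen (11.6%) and 53.5% against muscle (70.9%). Of the 359 liver-high segments in CPM, 348 met the rule under TMM as well, where 592 segments in all did so.

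Some genes were at 10 CPM or more in both liver and 1 other tissue. Both levels were also at least 4 times above each of the remaining tissues, but they need not be alike. With brain, liver shared glutamine synthetase, 4-aminobutyrate aminotransferase, which breaks down the transmitter GABA, at 737 CPM in liver and 861 CPM in brain, and angiotensinogen. With ovary it shared adenosylhomocysteinase, AKR1D1 and tubulin alpha-8, the last at 259 and 299.9 CPM. With spleen the segments of this kind included albumin, apolipoprotein B-100 and RBP4 at their low spleen levels, but also ovocalyxin-32, a protein known from chicken eggshell, which was higher in spleen at 2328 CPM than in liver at 388 CPM. With muscle it shared ACADM, the mitochondrial aspartate aminotransferase at 1313 and 967 CPM, and methylmalonate-semialdehyde dehydrogenase, of valine breakdown, at 829 and 791 CPM. With blood it shared sodium-dependent phosphate transporter 1, at 498 CPM in liver and 1324 CPM in blood, and alpha-tocopherol transfer protein, which keeps vitamin E in circulation, at 184 and 35.9 CPM. Of the 14561 tested segments, 26 met this rule with brain, 31 with ovary, 56 with spleen, 13 with muscle and 6 with blood.

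The summed liver counts came to 35367734, 33587116 from NextSeq and 1780618 from MiSeq, and the other tissues had between 16496224.5 (spleen) and 42803055.5 (muscle). A count of 3 in liver corresponds to 0.0848 CPM. Called on each platform alone, 337 of the 359 liver-high segments and 14 of the 25 liver-low segments met their rule on both.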

How the data were processed

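Polyadenylated RNA of each tissue pool was sequenced as a stranded mRNA library on NextSeq and MiSeq. The deposited values are expected counts in steps of 0.5 per protein-coding segment, which the authors made by trimming reads (Trimmomatic 0.36) and mapping them with bwa mem to the coding part of their own assembly. The submitters' processing notes also name STAR 2.5.2a, and the counter is not given in the sources used here. Shared reads between near-identical segments can therefore be split in a way that was not traced.

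Digit-group separators were removed from the deposited counts, no rounding was done, and the libraries of a tissue were summed (35367734 counts in liver). CPM was computed here in Python 3.11.15 with pandas 2.3.3, and intervals with scipy 1.17.1 (conditional binomial for ratios, at 95%). A count of 0 was set to a floor of 3 counts for a fold. TMM factors came from edgeR 4.0.16 in R 4.3.3, used for scaling only. All 12 count columns of the table were assigned to a sample by their labels. The authors' table holds no comparison columns.

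Calls used 1 CPM added to both levels, a factor of 4 and a minimum of 10 CPM. No test was run because each tissue has 1 pool. The members and lists were chosen with earlier results of these data known. Protein names were matched to 439 of 523 listed symbols after the table was seen, taking the segment with the most counts, and the other 84 are not analysed here. Named were the 20 most abundant liver-high segments, the 10 with the widest ratio, the 10 most liver-low, the list members that were most abundant, liver-high, under 1 CPM or higher elsewhere, and the 5 leading segments shared with each tissue. Other names were chosen after their values were seen, and some members that the rule names are not reported here. Scripts were tested on simulated data. Alternatives were each platform alone, other scalings, pseudocounts, factors and minimums, thinned counts, summed names and, chosen after seeing the data, leaving out spleen.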

Additional observations from a re-analysis of the deposited data

How the results depend on the processing

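The count of liver-high segments was 357 to 358 with a single platform, 407 without spleen, 592 under TMM and 610 under median-of-ratios scaling. It stayed within 1.5 times of the main count under the other alternatives. The liver-low count was 25 to 32 with a single platform and moved more, to 11 under TMM, 12 under median-of-ratios scaling, 66 with totals that leave out the 50 most abundant segments, 40 with 0.1 CPM and 2 with 5 CPM added, 138 at a factor of 2, 3 at a factor of 8 and 3 at a minimum of 50 CPM.

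Median-of-ratios scaling gave 1803 higher and 2510 lower segments against brain, 1730 and 1950 against ovary, 1691 and 1293 against spleen, and 1280 lower against muscle. TMM gave 1790 and 2504, 1593 and 2125, 1553 and 1499, and 1299 in the same order. Totals without the 50 most abundant segments gave 1554 lower against muscle, and adding 0.1 CPM gave 1136. Adding 5 CPM gave 3329 lower against brain, 3818 against ovary and 3083 against spleen, 1071 higher and 408 lower against muscle, and 1538 higher and 1162 lower against blood. A factor of 2 gave 1314 higher and 8731 lower against brain, 1020 and 9528 against ovary, 1136 and 8928 against spleen, 3542 and 1605 against muscle, and 4273 and 3365 against blood. A factor of 8 gave 472 and 2984, 409 and 3169 for brain and ovary, 2256 lower for spleen, 990 and 383 for muscle, and 1595 and 801 for blood. The cause was not tested where a scaling moved a count. The other changes follow from the looser or stricter rule.

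For the liver-high segments named as most abundant or widest in ratio, the log2 ratio ranged from 3.27 to 9.55 over the alternatives applied. None of these segments turned. Other named liver-high segments were not followed in this way and can lie lower, such as otopetrin-2 with 2.001 in CPM. Of the most liver-low segments, PFKFB2 isoform X5 turned to 2.06 when the segments of its name were summed, since the other segment of the name is higher in liver. No paired analysis by bird was possible because each pool mixed the RNA of both females, and no result comes from a test. With 1 pool per tissue, differences between birds were not measured, and at the depth of liver 3 counts stand for 0.0848 CPM.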

Other observations

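Of the liver-high segments, 168 belonged to the gene lists and 191 did not, of which 5 were uncharacterized. The genes below were picked from the latter after their values were seen. The liver fatty acid-binding protein, which carries fatty acids inside hepatocytes, was at 3837 CPM in liver and 53.1 CPM in spleen. Besides gallinacin-9, a gallinacin-13-like segment was at 10.2 CPM in liver and at or under 0.0191 CPM elsewhere. Both subunits of the organic solute transporter, which moves bile acids across cell membranes, were liver-high, alpha at 194 CPM against 8.91 CPM in blood and beta at 323 CPM against 3.76 CPM in spleen.

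Also picked in this way were some genes of tetrahydrobiopterin, a cofactor of aromatic amino acid hydroxylases. GTP cyclohydrolase 1, which starts its synthesis, was at 108 CPM in liver and 8.58 CPM in spleen, and its feedback regulatory protein, through which phenylalanine acts on it in mammals, was at 84.6 CPM in liver and 1.36 CPM in blood. The recycling enzymes pterin-4-alpha-carbinolamine dehydratase and dihydropteridine reductase were at 141 and 493 CPM in liver, with brain next at 12.5 and 72.4 CPM. Glycine amidinotransferase, the first enzyme of creatine synthesis, was at 886 CPM in liver and 30.5 CPM in brain. Both segments of adenosine kinase, which returns adenosine to AMP, were liver-high, at 2319.9 and 1847 CPM, with blood next at 274 and 178 CPM. Aquaporin-9, a channel for water and glycerol, was at 825 CPM in liver and 34.7 CPM in brain.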
